A study of Caenorhabditis elegans with 2 samples.

Results

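Peaks of the tagged homeodomain factor CEH-24 were described at ftt-2 and par-5, the 14-3-3 genes of the nematode Caenorhabditis elegans. The pair was chosen by name and with its peak values known, from 19985 annotated protein-coding genes. A peak was assigned to a gene when its summit lay inside the gene or within 3000 bp of it, and the signal value, the rank and the position of those peaks are therefore given as description, without a test. CEH-24 carried GFP and FLAG at its C terminus in the transgenic strain OP673, whose genotype is unc-119 (tm4063) III with the insertion wgIs673. Both biological replicates were made from whole late embryos of mixed sex, 5 h after bleach synchronization, and the bound DNA was recovered with an antibody to GFP. They form 1 group, with no second condition. All measurements come from 1 transgenic line and from whole animals, so the cells in which a site was occupied are not resolved.

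The 14-3-3 proteins are small acidic adaptors that form dimers and hold partner proteins phosphorylated on serine or threonine. PAR-5 is named for the partitioning-defective mutants and is needed in the fertilized egg to keep the anterior and posterior PAR proteins apart. FTT-2 binds the FOXO factor DAF-16, the output of insulin-like signalling, and retains it in the cytoplasm. CEH-24 belongs to the NK-2 class of homeodomain proteins and is known from head neurons, pharyngeal muscle and vulval muscle.

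The 14-3-3 genes differed in where CEH-24-GFP was recovered. A pair of strong neighbouring peaks lay upstream of ftt-2 in both replicates, and no pooled summit lay inside the gene. At par-5 no peak reached the list of optimal peaks, which are those that passed the irreproducible discovery rate (IDR) threshold, and the highest pooled peak there lay in an intron of the next gene. The sequences of these peaks, reaching 100 bases to either side of the pooled summit and read on the strand of the 14-3-3 gene, are shown first because the rest of the description refers to them. They are from the RefSeq genome, build WBcel235 (ce11), minus strand. Capitals mark the word GCGCGC and an 11-base run that both ftt-2 windows hold. The first window is chrX:11605849-11606049, the second chrX:11606051-11606251 and the third, which holds neither, chrIV:11822347-11822547.
ftt-2 higher peak: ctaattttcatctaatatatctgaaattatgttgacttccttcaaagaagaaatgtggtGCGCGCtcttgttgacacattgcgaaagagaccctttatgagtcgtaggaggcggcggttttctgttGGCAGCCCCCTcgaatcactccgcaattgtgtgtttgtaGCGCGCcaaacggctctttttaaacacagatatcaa
ftt-2 lower peak: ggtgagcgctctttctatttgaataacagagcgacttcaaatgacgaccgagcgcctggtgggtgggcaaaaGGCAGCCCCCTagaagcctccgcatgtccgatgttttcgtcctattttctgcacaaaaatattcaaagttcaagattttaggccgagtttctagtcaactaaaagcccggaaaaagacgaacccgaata
par-5 highest peak: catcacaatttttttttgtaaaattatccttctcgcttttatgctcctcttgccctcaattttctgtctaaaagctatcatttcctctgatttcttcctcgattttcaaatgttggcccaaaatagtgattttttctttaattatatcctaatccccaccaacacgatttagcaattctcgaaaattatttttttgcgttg

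The gene ftt-2 (WBGene00001502) occupies 11603708 to 11605419 of the minus strand of chromosome X. It stands alone, with 12050 bp to the next protein-coding gene upstream, F52D10.4, and 11987 bp to the next downstream, F52D10.2. Its window held 6 peaks of the pooled list, which combines the reads of both replicates, and 2 of the 276 optimal peaks. Over all protein-coding genes, 581 (2.91%) had an optimal summit in such a window and 41 had a pair of them. The window was also how the genes were chosen, so nothing is read from that share.

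The higher ftt-2 peak (X, 11605810 to 11606065) had a signal value of 437 and rank 6 of 30000 in the pooled list. Its counterpart had a signal of 197 and rank 11 in replicate 1, and a signal of 237 and rank 6 in replicate 2. The pooled summit, at 11605949, lay 530 bp upstream of the annotated start. The peak was thus among the strongest of the whole genome in each of the 3 lists. The deposited q-value was the lowest that each list holds, 0.00304 pooled, 0.0209 in replicate 1 and 0.00662 in replicate 2. Such values were shared with 164 other pooled peaks, so they do not order the strongest peaks.

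The lower ftt-2 peak (X, 11605999 to 11606295) had a pooled signal of 303 and rank 13, with its summit 732 bp upstream of the start. Each replicate resolved this neighbour as well, with a signal of 115 (rank 45) in replicate 1 and 139 (rank 20) in replicate 2. The lower peak was 0.694 of the higher one in the pooled list, 0.583 in replicate 1 and 0.586 in replicate 2. The order of the neighbours was thus the same in both replicates, with the peak nearer to ftt-2 the higher.

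**Figure D1:**
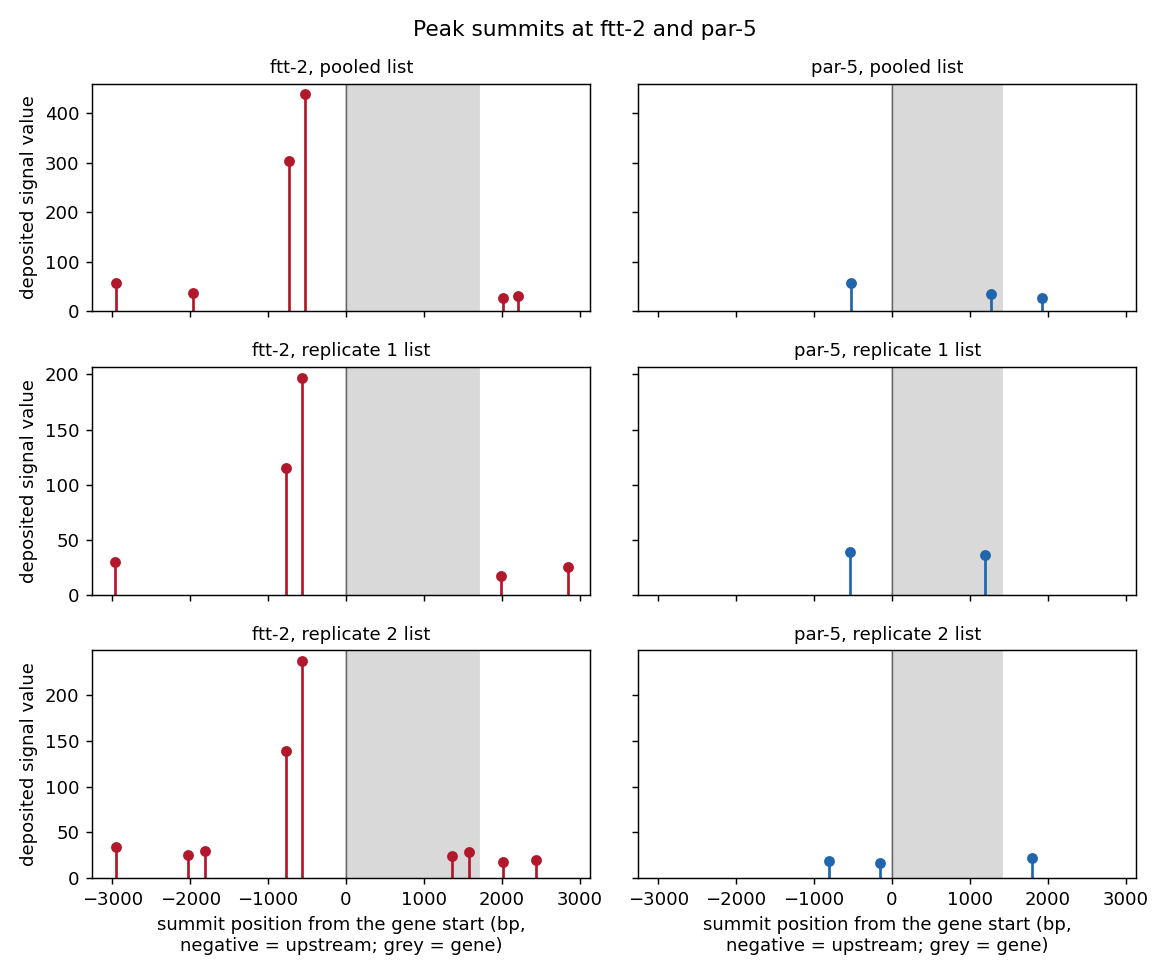
Deposited signal value of every peak summit inside ftt-2 (left) or par-5 (right) or within 3000 bp, against its distance from the gene start in bp, with negative distances upstream and the gene in grey; rows are the pooled list and each replicate, with separate vertical scales. The ftt-2 pair, 437 and 303 in the pooled list, stands out in each row, and no par-5 summit exceeds 57.3.

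The spacing of the ftt-2 pair was close to the finest that the lists resolve. The pooled summits were 202 bp apart, and in no list were neighbouring summits less than 199 bp apart. Among optimal peaks, 14 pairs of neighbours lay within 400 bp, with a median gap of 203 bp. Whether the ftt-2 pair is a single broad site divided by the peak caller or separate sites was not tested. Of these 14 pairs, the ftt-2 pair had the highest lower member, at 303, followed by the pair near C04A11.5 at 195. The ratio of the lower to the higher signal, 0.694, was exceeded by 2 of the 14 pairs, each with weaker peaks. Both ftt-2 peaks were also narrower than the usual optimal peak, at 256 and 297 bp against 496 bp for 88.4% of the list. This was not particular to ftt-2, since 32 optimal peaks were narrower than 496 bp, among them the strongest of the list.

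**Figure D2:**
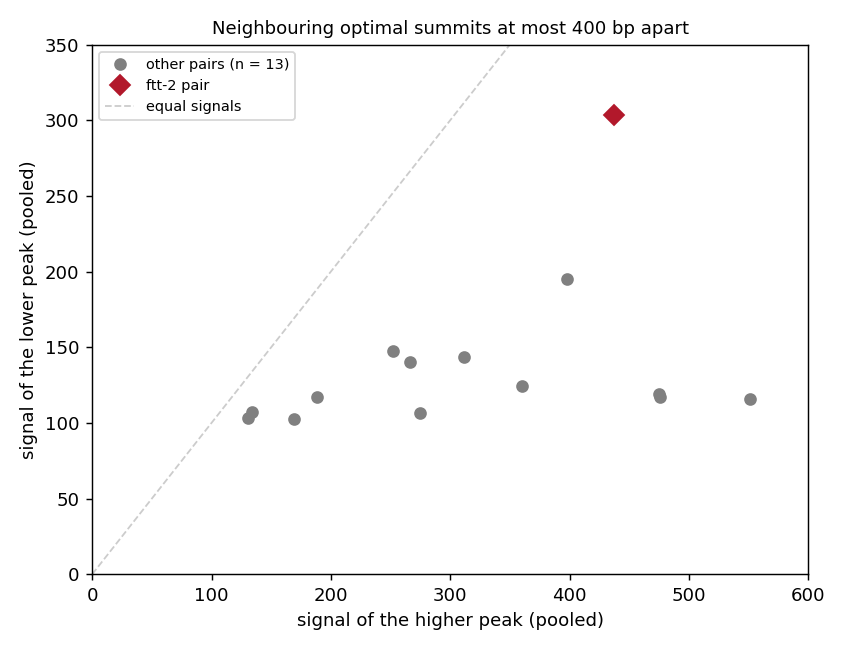
Pooled signal of the lower peak against that of the higher peak, for the 14 pairs of neighbouring optimal summits at most 400 bp apart, with a dashed line where both would be equal. The ftt-2 pair (red diamond) is at 437 and 303, and the lower peak of each other pair is at 195 or less.

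The summits of both replicates were displaced from the pooled summits to the same side. For the higher peak they lay 39 bp (replicate 1) and 36 bp (replicate 2) farther upstream, and for the lower peak 39 and 38 bp. Taken 1 replicate at a time and to either side, 28.9% of 273 matched optimal peaks were shifted by as much or more in replicate 1. In replicate 2 it was 39.1% of 276. These shares do not say how often both replicates were shifted to the same side, which was not counted. The replicate summits were closer to each other, at X 11605988 and 11605985 for the higher peak and at 11606190 and 11606189 for the lower. The pooled positions at ftt-2 are therefore known no more finely than the shifts of 36 to 39 bp.

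Every summit of the pair lay inside a short gene annotated as ncRNA, a biotype kept apart from those of tRNA, snoRNA and snRNA genes in the annotation. The higher peak was in F52D10.7 (X, 11605853 to 11605989) and the lower one in F52D10.9 (X, 11606129 to 11606277), both on the minus strand like ftt-2. The pooled summit was 40 bp inside F52D10.7 from its 5′ end, while the replicate summits were 1 and 4 bp from that end. In F52D10.9 the summits were 126 bp (pooled), 87 bp (replicate 1) and 88 bp (replicate 2) from the 5′ end. A summit in a gene of this biotype was found for 70 of 276 optimal peaks (25.4%) and for 564 of 29724 other pooled peaks (1.90%). The ftt-2 peaks were thus not alone in this position.

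The remaining 4 pooled peaks of ftt-2 were weak, with signals of 27.8 to 56.8. The highest of them, rank 2303, was at the edge of the window, 2949 bp upstream. The first summit beyond the upstream edge was 5721 bp away, with a signal of 45.0. Inside the gene no pooled or replicate 1 summit was found. Replicate 2 had a summit in the 3′ UTR (signal 28.7, rank 5484) and one in coding sequence (24.6, rank 9388), with q-values of 0.469 and 0.653.

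The gene par-5 (WBGene00003920) occupies 11820506 to 11821924 of the minus strand of chromosome IV. In contrast to ftt-2 it lies in a crowded region. The divergent gene M117.3 begins 281 bp upstream and M117.1 ends 747 bp downstream. Its window held 3 pooled peaks and 0 optimal peaks. The highest (IV, 11822199 to 11822694) had a pooled signal of 57.3, rank 2190 and a q-value of 0.410. Its summit was 523 bp upstream of par-5, in an intron of M117.3 and 241 bp from the start of that gene, so by distance it belonged to M117.3. The signal lay below the lowest optimal signal, 102.18, and the highest pooled signal left out of that list, 102.04.

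The replicates differed at par-5. Replicate 1 had a summit 9 bp from the pooled one, with a signal of 38.8 and rank 1434. Replicate 2 had no summit there. The summits nearest to it in replicate 2 were 366 and 284 bp away, with signals of 16.9 and 19.1 and ranks 24562 and 19073. The highest peak of replicate 2 in the whole window was downstream of the gene (signal 22.0, rank 13210). A second peak of replicate 1, in the 3′ UTR of par-5, had a signal of 35.95 and rank 2167, and its pooled counterpart had 34.4 and rank 15386, with no summit of replicate 2 in the gene. The summits of the replicates at par-5 thus did not coincide.

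**Figure D3:**
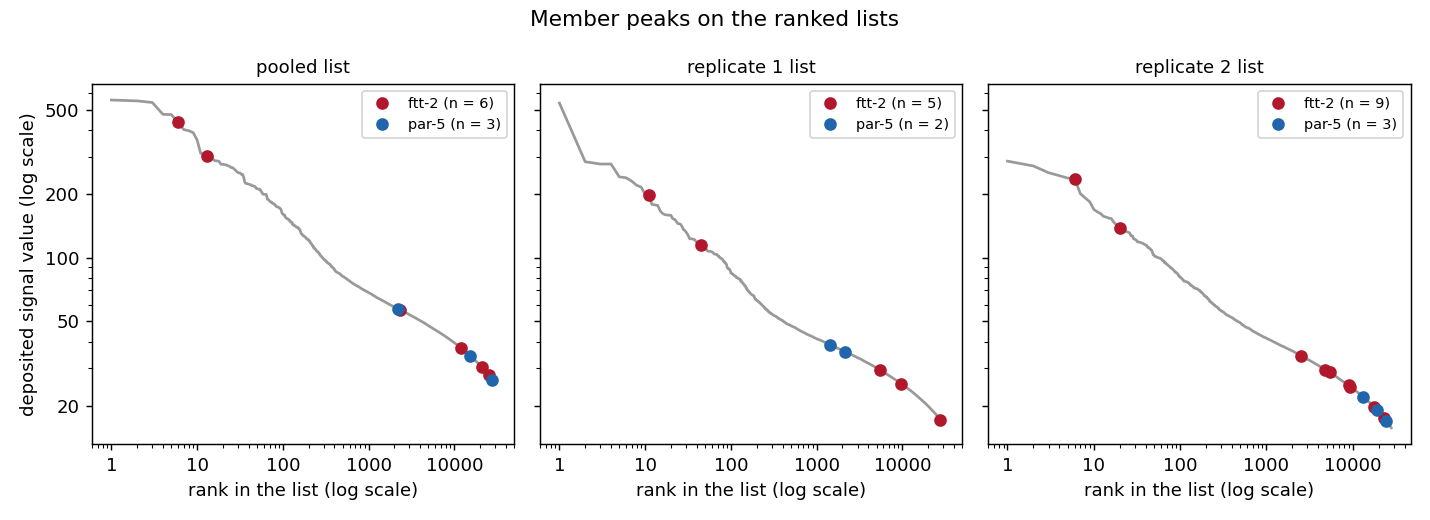
Deposited signal value against rank, both on log scales, for all peaks of the pooled list and of each replicate (grey line), with the peaks of ftt-2 (red) and par-5 (blue). The ftt-2 pair lies at ranks 6 and 13 (pooled), 11 and 45 (replicate 1) and 6 and 20 (replicate 2), and the par-5 peaks at rank 1434 or beyond.

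Set side by side within 1 list, the highest ftt-2 signal was 7.63 times the highest par-5 signal in the pooled list, 5.08 times in replicate 1 and 10.7 times in replicate 2. The spread comes mainly from par-5, whose highest signal was 1.75 times the list's median in replicate 1 and 1.02 times in replicate 2, against 8.90 and 11.0 times for ftt-2. That par-5 peak was in the intron of M117.3 in the pooled list and replicate 1, but downstream of par-5 in replicate 2. The ratios therefore do not compare the same par-5 site. Ordered by the highest signal in the gene window, ftt-2 was at place 17 of the 16819 protein-coding genes with a pooled peak and par-5 at place 3304. In the replicates ftt-2 was at places 25 of 17182 and 17 of 16839, and par-5 at places 2382 and 11994. The place of ftt-2 thus hardly moved between replicates, while that of par-5 went from the upper part of the order to below its middle.

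The paralogs are unlike enough for their reads to be told apart. The coding sequences of the transcripts F52D10.3a.1 and M117.2a.1, both 744 bp, were identical at 79.6% of 741 aligned bases. The other annotated ftt-2 transcript, F52D10.3c.1, has another exon 3 of 164 bp, 59.8% identical to exon 3 of the first. Of the 7677 36-base words of the ftt-2 window, 0 occurred in the par-5 window, and all 166 words in each of the 3 sequences above were found once in the genome. The read length is not given in the sources used here, so 36 bases is an assumed length.

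The words searched in the peak windows, on both strands, were the NK-2 class site TNAAGTG with its core, which is AAGTG, the word CGCACA and also the word GCGCGC, both chosen from earlier results of these data, the DAF-16 site GTAAACA, the B box word GTTCNANNC of RNA polymerase III genes, and TATAAA. The site TNAAGTG contains the core. Neither ftt-2 window held the NK-2 site or its core, which were present in 6.16% and 41.7% of optimal windows and in 2707 and 10698 of the 29724 other pooled windows. The window of the higher peak held GCGCGC at 2 positions, a word found in 12.7% of optimal and 2.26% of other windows. Both GCGCGC and CGCACA had been chosen as leading words of promoter peaks in these data, so nothing is read from their shares. The lower peak's window and the par-5 window held none of the 7 words. Of the words that both ftt-2 windows lacked, GTTCNANNC was in 43.5% of optimal and 6.8% of other windows, and CGCACA in 19.9% and 5.04%. The shares were 18.1% and 22.0% for TATAAA, and 0.725% and 2.2% for the DAF-16 site. The GC content was 43.8% and 46.8% in the ftt-2 windows and 32.3% at par-5, beside medians of 45.8% in optimal and 35.3% in other pooled windows. By base composition the ftt-2 peaks thus resembled the optimal list and the par-5 peak the rest.

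The 300 bases directly upstream of each gene are printed because each holds some of the words that the peak windows lack, with no pooled summit in either. Capitals mark each word of the same list, on either strand. The stretches are chrX:11605420-11605719, which overlaps the ncRNA genes F52D10.11 and F52D10.12, and chrIV:11821925-11822224, which overlaps M117.11 and M117.12, both minus strand. The second also reaches into the protein-coding gene M117.3, which begins at 11822206.
ftt-2 upstream: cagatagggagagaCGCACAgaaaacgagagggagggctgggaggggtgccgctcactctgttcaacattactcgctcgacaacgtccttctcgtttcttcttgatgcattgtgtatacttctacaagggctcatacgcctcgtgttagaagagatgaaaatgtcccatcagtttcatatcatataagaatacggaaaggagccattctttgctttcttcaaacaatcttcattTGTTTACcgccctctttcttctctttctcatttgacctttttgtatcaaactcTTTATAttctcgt
par-5 upstream: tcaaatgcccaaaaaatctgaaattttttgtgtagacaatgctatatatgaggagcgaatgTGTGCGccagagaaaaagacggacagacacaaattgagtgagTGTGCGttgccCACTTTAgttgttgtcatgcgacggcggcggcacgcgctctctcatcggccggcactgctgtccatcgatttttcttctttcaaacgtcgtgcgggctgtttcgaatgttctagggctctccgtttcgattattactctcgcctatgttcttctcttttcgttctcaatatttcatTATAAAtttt

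The par-5 stretch held the NK-2 site on the other strand (IV, 11822104 to 11822110), CGCACA at 2 positions and TATAAA. That NK-2 site lay between the starts of par-5 (11821924) and M117.3 (11822206), nearer to that of M117.3. The NK-2 site occurs in 14.3% of 19973 such stretches over all protein-coding genes and CGCACA in 7.37%. The only summit of any list in the stretch was one of replicate 2, 157 bp upstream of the start, with a signal of 16.9 and a q-value of 0.932. The ftt-2 stretch held CGCACA (X, 11605700 to 11605705), the DAF-16 site (X, 11605479 to 11605485) and TATAAA. The DAF-16 site is present in 5.01% of the stretches and TATAAA in 39.6%. A match of letters describes the sequence and does not show that a factor binds there.

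Signals were also read at genes of the pathways in which the 14-3-3 proteins act, called partner genes here. Of 22 such genes, 10 of the PAR polarity system, 10 of insulin-like signalling and 2 for DAF-16 cofactors, 0 had an optimal summit within 1000 bp of a start. Over all protein-coding genes that share was 1.11%, or 2.23% of the 9969 genes with any pooled summit there, so 0 of 22 is close to what the background holds. A summit of the pooled list lay near the start of 15 of the 22, with a median highest signal of 36.4 beside 37.9 over all such genes. With the wider gene window, 20 of the 22 had a pooled summit, with signals of 29.6 to 85.5 and a median of 43.5 beside 42.95 over all genes.

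The highest of them were par-6, for a PDZ protein of the anterior PAR complex, at 85.5 (rank 425), daf-2, for the insulin-like receptor, at 84.8 (rank 439), and par-3, for the PDZ scaffold of that complex, at 68.6 (rank 988). At daf-2 the gene is 46333 bp long and at par-3 12563 bp, so more summits can fall in their windows than at par-5, with 1419 bp. Of the 20 partner genes with a pooled summit, 8 had a higher signal than par-5, among them daf-16 at 61.1. The par-5 value was thus within the range of the partner genes, and that of ftt-2 beyond it. The value of ftt-2 was known when it was chosen, at place 17 of the 16819 protein-coding genes with a pooled peak. Nearly any list of genes would lie below it, so nothing is read from this.

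**Figure D4:**
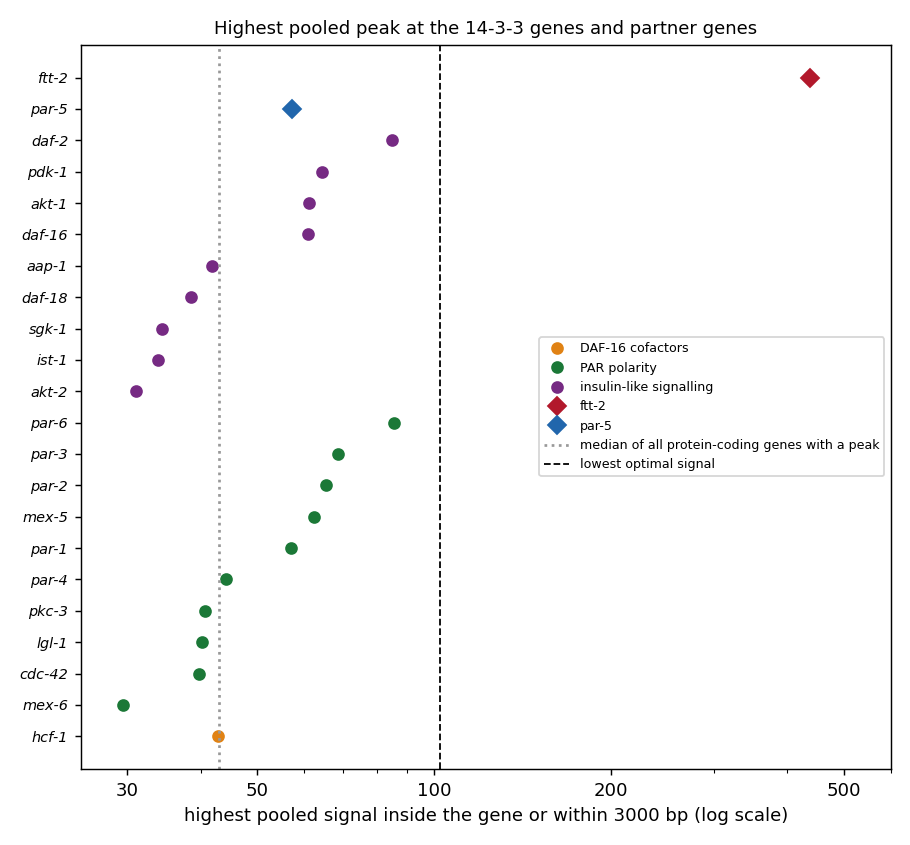
Highest pooled signal inside each gene or within 3000 bp, on a log scale, for ftt-2, par-5 and the 20 partner genes with a pooled summit, coloured by list; the dotted line is the median over protein-coding genes with a peak (42.95) and the dashed line the lowest optimal signal (102.18). Only ftt-2, at 437, lies beyond the dashed line.

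The peaks most like the higher ftt-2 peak had signals of similar size in all 3 lists. Likeness was the Euclidean distance of the log2 signals in the pooled list and both replicates, over 157 optimal peaks with a coding start within 1000 bp, taking the highest overlapping replicate peak. The nearest was that at C04A11.5 (distance 0.27), with a pooled signal of 398 and replicate signals of 199 and 200.6, and its summit was in a tRNA gene. It was followed by K12H4.5 (0.30, with 475, 239 and 238), T02E1.2 (0.48), sre-23 (0.56) and ints-8 (0.78). These distances use the values that chose ftt-2 and say nothing of shared control.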

How the data were processed

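CEH-24-GFP peaks of 2 biological replicates of late embryos were taken from 4 deposited lists on ce11, which is the reference build WBcel235. Per the file headers, these are a relaxed list of peaks and background for each replicate, a pooled list and the optimal peaks that passed the IDR threshold, all derived with the same control. The signal value in column 7 and the −log10 q-value are the authors', as deposited. No source used here names the aligner or the peak caller. The lists give no read totals, and the depth is unknown. The lists deposited on ce10 were not used.

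Summits were set against Ensembl release 115 and the RefSeq genome in Python 3.11.15 (numpy 2.4.6, pandas 2.3.3, biopython 1.88, matplotlib 3.10.9). Rank 1 is the highest signal of a list. Lists overlapped when 1 bp or more was shared. Gene assignment and word search were tested on simulated data. The genes, gene lists and words were chosen with earlier results of these data known. Named were ftt-2, par-5, the genes next to each, the 3 partner genes with the highest pooled signal and the 5 optimal peaks most like that of ftt-2, with daf-16 added after its value was seen. No protein comparison was made, and coding sequences were compared by global alignment. No test was run, since the values described chose the genes.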

Additional observations from a re-analysis of the deposited data

How the results depend on the processing

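In all, 22 alternatives were run. The highest pooled signals, 437 at ftt-2 and 57.3 at par-5, were the same with 1000 and 10000 bp around the genes. The ratio of 7.63 ranged from 5.08 to 10.7 with either replicate left out, and the spread between replicates (SD 4.01, n = 2) rests on the same 2 values. With −log10 q-values in place of signals it was 6.51, which says nothing of stability, since the value of ftt-2 is the highest of the list and is shared with 164 other peaks. The 2 optimal peaks of ftt-2 were also in the upper 138 optimal peaks, where par-5 could have none. The counts were again 2 and 0 among pooled peaks with a q-value of 0.05 or less, and, in alternatives chosen after the data were seen, among the 276 highest peaks of either replicate. All these counts follow from the ranks and q-values given above, so they say nothing of stability. Both ftt-2 peaks were matched in each replicate also when at least 50% of both peaks had to be shared. The partner genes had 0 optimal peaks under each of 4 alternatives. Over all protein-coding genes the share was 1.11% within 1000 bp of a start and 2.91% in the gene window. A count of 0 among 22 genes is thus close to the background. No paired analysis was possible because the study has 1 group. Without read totals, a weak site at par-5 and no site could not be told apart.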

Other observations

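The windows of the ftt-2 peaks share a run of 11 bases that was noticed only when the sequences were read. The run GGCAGCCCCCT occurs 2 times in the genome, counted on both strands, and both copies are in these windows. They lie on the strand of ftt-2 at X 11605913 to 11605923 and X 11606169 to 11606179, 256 bp apart. The middle of the copy nearer to ftt-2 was 31 bp downstream of the pooled summit, and 70 and 67 bp downstream of the summits of replicates 1 and 2. The middle of the other copy was 23 bp upstream of the pooled summit, but 16 and 15 bp downstream of those of the replicates, so the run has no fixed place relative to the summits. The 382 words of that length in these windows occurred between 2 and 2217 times in the genome, with a median of 48.

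A local alignment of both windows began with the run and went on for 36 bases in each, with 30 of 33 aligned positions identical and 3 bases of each stretch left opposite gaps, whose placement is the choice of the aligner. The aligned stretches, minus strand of chromosome X, are given with the run in capitals.
Higher peak: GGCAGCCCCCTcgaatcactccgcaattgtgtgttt
Lower peak: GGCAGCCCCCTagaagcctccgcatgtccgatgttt

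Sharing a run of this length was not particular to ftt-2. Of the 13 other pairs of neighbouring optimal summits, 4 shared a run at least as long, and the longest was 83 bases, with a median of 9. The longest run that either ftt-2 window shared with the par-5 window was 8 bases.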
